A study of Mus musculus with 8 samples.

Results

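Crip2, Ak1, Ass1, Cpt1c, Blnk, Pnrc1, Celf5 and Pid1 are 8 genes picked for a strong rise in at least 1 irradiation regimen of LLC1 cells. They were found by their symbols on the array, where 12 probes carry them, and they make up 8 of the 13406 genes tested. They were chosen by their log2 ratios of irradiated over untreated cells, with no stated limit on the size, so those ratios are given here as a description, without a test. LLC1 is an established cell line from a lung carcinoma of a C57BL/6 mouse, the Lewis lung carcinoma. Each of 8 dual-colour arrays held RNA of untreated LLC1 cells in Cy3 and of irradiated LLC1 cells in Cy5, collected 4 h after X-rays. A single dose of 2 Gy had 3 arrays, a single dose of 10 Gy had 2, and 5 fractions of 2 Gy (written 5x2 Gy, 10 Gy in total) had 3. The labels call the replicates biological, and replicate 3 of 10 Gy was not analysed here. The sources used here give neither the time between fractions nor whether the 4 h of 5x2 Gy run from the last fraction. The dyes were never exchanged, so a dye effect specific to a gene cannot be told apart from its change against untreated cells. Cells are 1 line in culture, and fewer cells that express a gene cannot be told apart from less RNA per cell.

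X-rays break DNA, and cells answer within hours through the p53 pathway, which raises genes of cell cycle arrest and repair such as Cdkn1a, Mdm2 and Ccng1. The 8 genes share no single pathway. Crip2 encodes a small protein made of LIM domains, zinc-binding modules that dock other proteins. Ak1, Ass1 and Cpt1c belong to metabolism. Ak1 is the cytosolic adenylate kinase, which converts ATP and AMP into ADP and back. Ass1 is argininosuccinate synthase, which joins citrulline and aspartate in the synthesis of arginine. Cpt1c is the brain-type relative of the carnitine palmitoyltransferases that move fatty acids toward mitochondria. Blnk and Pid1 are adaptors without enzyme activity: Blnk is the B cell linker that couples the kinase Syk to phospholipase C gamma, and Pid1 has a phosphotyrosine-binding domain and acts on insulin signalling. Pnrc1 is a nuclear receptor coactivator that also binds the mRNA decapping machinery, and Celf5 is an RNA-binding protein of the CELF family of splicing regulators.

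The sequences before the annotated starts are shown for the genes whose mean ratio passed 2 on the log2 scale after 10 Gy, the largest means of the 8 genes. RefSeq's table (GRCm38.p6) matched 8 of the 8 genes, with 16 windows of 250 bases upstream of a start, and the window farthest upstream of each gene is printed. They lie at chr12:113139986-113140235 on the plus strand for Crip2, chr2:32621508-32621757 (plus) for Ak1, chr2:31470020-31470269 (plus) for Ass1, chr10:81482700-81482949 (minus) for Celf5 and chr1:84284646-84284895 (minus) for Pid1, each read 5′ to 3′ toward the gene. Capitals mark a GC box (GGGCGG on either strand, overlapping matches counted apart) or a p53 half-site.
Crip2: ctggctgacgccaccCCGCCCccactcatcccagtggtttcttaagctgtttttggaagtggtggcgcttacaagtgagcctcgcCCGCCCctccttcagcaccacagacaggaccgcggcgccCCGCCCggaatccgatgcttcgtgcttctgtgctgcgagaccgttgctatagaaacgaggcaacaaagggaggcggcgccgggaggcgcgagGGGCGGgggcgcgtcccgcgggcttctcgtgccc
Ak1: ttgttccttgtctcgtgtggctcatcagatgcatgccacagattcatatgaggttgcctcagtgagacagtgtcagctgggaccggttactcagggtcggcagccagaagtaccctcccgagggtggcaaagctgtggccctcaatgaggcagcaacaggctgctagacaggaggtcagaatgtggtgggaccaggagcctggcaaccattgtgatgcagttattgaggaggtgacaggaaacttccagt
Ass1: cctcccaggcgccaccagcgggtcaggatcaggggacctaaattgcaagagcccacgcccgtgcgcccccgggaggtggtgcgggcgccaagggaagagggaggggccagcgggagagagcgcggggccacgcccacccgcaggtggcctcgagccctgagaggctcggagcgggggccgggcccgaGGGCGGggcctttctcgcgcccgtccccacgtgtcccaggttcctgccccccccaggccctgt
Celf5: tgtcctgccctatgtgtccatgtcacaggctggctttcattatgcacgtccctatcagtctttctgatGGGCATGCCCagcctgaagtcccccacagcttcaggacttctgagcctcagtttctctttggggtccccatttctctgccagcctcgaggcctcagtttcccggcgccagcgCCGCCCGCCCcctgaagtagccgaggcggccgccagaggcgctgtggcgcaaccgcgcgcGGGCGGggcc
Pid1: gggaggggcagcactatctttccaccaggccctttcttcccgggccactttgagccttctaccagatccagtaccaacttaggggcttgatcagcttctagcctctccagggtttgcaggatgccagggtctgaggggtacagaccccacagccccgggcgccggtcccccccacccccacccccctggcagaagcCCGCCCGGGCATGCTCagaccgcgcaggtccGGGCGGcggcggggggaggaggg
The GC box was found 4 times in the printed window of Crip2, 3 times in that of Celf5, 2 times in that of Pid1, once in that of Ass1 and not in that of Ak1. A GC box stands in 8 of the 16 windows of these genes and in 32.7% of the 32851 windows of the table. The p53 half-site occurs in 2 of the 16, those of Celf5 and Pid1, where it begins 182 and 48 bases before the start, and in 7.13% of the table. A CCAAT motif (either strand) lies in 4 of the 16 windows against 33.8%, the E-box CACGTG in 1 (Ass1) against 6.02%, TGANTCA in 1 (Celf5) against 6.75% and TATAAA in 0 against 12.4%. These are matches of letters in a window, and no binding was measured.

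Signals above background were read from 34.75% to 49.06% of the probes per channel. Of the 3 check genes, 1 was called after 2 Gy and all 3 after 10 Gy and 5x2 Gy. Ccng1 was higher by 1.12 ± 0.16 (SE) after 2 Gy, 2.00 ± 0.19 after 10 Gy and 1.64 ± 0.16 after 5x2 Gy (adjusted p = 0.00283, 3.6e-04 and 1.9e-04, limma). Cdkn1a was called after 10 Gy (2.6, adjusted p = 0.00166) and 5x2 Gy (1.27, adjusted p = 0.0122), and after 2 Gy its value was 0.88 with an adjusted p of 0.0879. Mdm2 was at 0.48 after 2 Gy (adjusted p = 0.181), 2.14 after 10 Gy (adjusted p = 9.9e-04) and 0.67 after 5x2 Gy (adjusted p = 0.0444). The keratins Krt8, Krt18 and Krt19 and the mesenchymal marker Vim were above background on 8 arrays, while the epithelial markers Epcam and Cdh1 and the lung factor Nkx2-1 were on none. The 10 Gy arrays differed from each other. Over all genes, replicate 1 correlated with replicate 2 at r = 0.43, while replicate 2 correlated with the 5x2 Gy arrays at r = 0.75 to 0.85; genes within an array are not independent replicates, and these r are descriptions. The 10 Gy pair was also split between slides: image names in the file headers put replicate 1 with the arrays of 2 Gy (slide 1) and replicate 2 with those of 5x2 Gy (slide 2). Each 10 Gy value of the 8 genes is therefore given for both arrays.

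Ratios of the 8 genes lay above 0 on every array of each regimen, as did 31.4% of all genes after 2 Gy, 27% after 10 Gy and 35.5% after 5x2 Gy. The rule used these contrasts, so nothing is read from that count. Their median log2 ratio was 1.45 after 2 Gy, 2.46 after 10 Gy and 1.35 after 5x2 Gy, against -0.003, -0.056 and -0.02 for all genes. The genes differed in how the regimens ranked. Crip2, Ak1 and Ass1 had higher ratios after 10 Gy and 5x2 Gy than after 2 Gy. Cpt1c (with its brightest probe) and Blnk had overlapping arrays in the 3 regimens. Pnrc1 and Celf5 had their lowest arrays after 5x2 Gy, and Pid1 was high on 1 array, 10 Gy replicate 1.

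**Figure D1:**
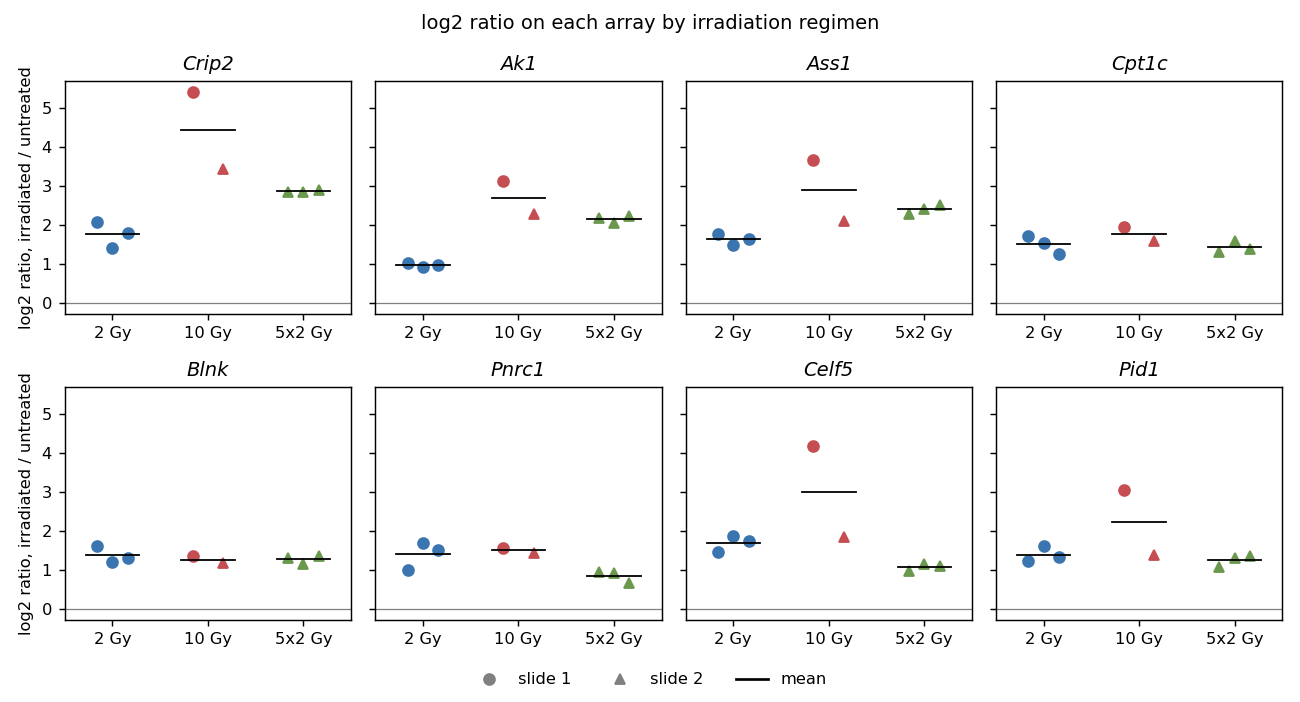
Each point is the log2 ratio of irradiated over untreated cells on 1 array, by regimen; circles are slide 1, triangles are slide 2, and black lines are regimen means. Crip2 and Ak1 separate the 3 regimens, with the means of Crip2 at 1.76, 4.42 and 2.86, while Blnk stays between 1.16 and 1.62, and 10 Gy replicate 1 (circle) lies above replicate 2 (triangle) for each of the 8 genes.

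Crip2, the LIM domain protein, reached log2 ratios of 2.08, 1.40 and 1.78 after 2 Gy, 5.41 and 3.43 after 10 Gy, and 2.84, 2.83 and 2.89 after 5x2 Gy. No arrays overlapped between regimens: both 10 Gy values were the highest and the 3 values after 2 Gy the lowest. The means were 1.76 ± 0.34 (SD, n = 3), 4.42 ± 1.40 (n = 2) and 2.86 ± 0.03 (n = 3), or 3.38-fold, 21.4-fold and 7.23-fold. Among the genes tested, Crip2 ranked 2 after 2 Gy and 1 after both other regimens. Its signal in untreated cells had a log2 value of 9.60 to 9.79 on 7 arrays and 8.93 on 10 Gy replicate 1, so the high ratio of that array came from both channels: the irradiated signal was higher than on replicate 2 by 1.31 and the untreated one lower by 0.66 on the log2 scale. The irradiated spot of that array was near saturation (its most frequent pixel value was 64080, above the limit of 62258 set for such spots) and carried a flag of unstated meaning.

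Ak1, the adenylate kinase, had log2 ratios of 1.02, 0.93 and 0.97 after 2 Gy, 3.11 and 2.28 after 10 Gy, and 2.19, 2.05 and 2.24 after 5x2 Gy. The arrays of the 3 regimens did not overlap, although 10 Gy replicate 2 lay just above the highest 5x2 Gy array. Means were 0.97 ± 0.05 (SD, n = 3), 2.69 ± 0.59 (n = 2) and 2.16 ± 0.10 (n = 3), or 1.96-fold, 6.47-fold and 4.47-fold. Ak1 ranked 72 among the genes tested after 2 Gy, 10 after 10 Gy and 5 after 5x2 Gy. Bright in untreated cells (log2 signals of 11.50 to 12.54, lowest on 10 Gy replicate 1), its probe was near saturation in the irradiated channel of that array, and its spot was flagged on 7 of the 8 arrays. Flagged spots of this kind were bright in general, with a median irradiated signal of 13490 against 282.5 for unflagged ones, and Ak1 could not be fitted without them.

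Ass1, the enzyme of arginine synthesis, gave log2 ratios of 1.76, 1.48 and 1.64 after 2 Gy, 3.67 and 2.10 after 10 Gy, and 2.28, 2.42 and 2.52 after 5x2 Gy with its brightest probe. Both 10 Gy and 5x2 Gy lay above 2 Gy on every array, whereas 10 Gy replicate 2 was below the 5x2 Gy arrays and replicate 1 above them. These values gave means of 1.63 ± 0.14 (SD, n = 3), 2.88 ± 1.11 (n = 2) and 2.41 ± 0.12 (n = 3), or 3.09-fold, 7.38-fold and 5.30-fold. A second Ass1 probe gave means of 1.70 ± 0.28, 3.28 ± 0.72 and 2.81 ± 0.17, in the same order. With that probe, 10 Gy replicate 2 (2.77) lay within the range of the 5x2 Gy arrays (2.625 to 2.959). Untreated signals of Ass1 spread by an SD of 0.08 over the 8 arrays, so that its ratios differed mainly through the irradiated channel.

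Cpt1c, the brain-type carnitine palmitoyltransferase, had log2 ratios of 1.72, 1.53 and 1.25 after 2 Gy, 1.94 and 1.60 after 10 Gy, and 1.30, 1.60 and 1.37 after 5x2 Gy. With this brightest probe the arrays of each pair of regimens overlapped. Regimen means were 1.5 ± 0.24 (SD, n = 3), 1.77 ± 0.24 (n = 2) and 1.43 ± 0.15 (n = 3), between 2.69-fold and 3.40-fold. The other Cpt1c probe read 1.15 ± 0.03, 1.54 ± 0.19 and 1.33 ± 0.21, another order: 2 Gy was lowest, and its arrays (1.11 to 1.16) did not overlap those of 10 Gy (1.41 to 1.68).

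Blnk, the B cell linker, had log2 ratios of 1.62, 1.21 and 1.32 after 2 Gy, 1.36 and 1.18 after 10 Gy, and 1.30, 1.16 and 1.36 after 5x2 Gy. The 8 values lay between 1.16 and 1.62, and the regimens overlapped. Means were 1.38 ± 0.21 (SD, n = 3), 1.27 ± 0.12 (n = 2) and 1.27 ± 0.11 (n = 3), with folds of 2.41 after 10 Gy and 2.42 after 5x2 Gy. The signal of Blnk was above background in both channels of 8 arrays in this carcinoma line. Of 6 B cell markers, Ms4a1 and Pax5 were above background on no array, Cd79a in the untreated channel of 1, Cd22 of 6 and Cd79b of 8. Summed signals of the 6 markers ranged from 1386 to 1566 in untreated cells and from 1331 to 1391, 1250 to 1271 and 1230 to 1283 after 2 Gy, 10 Gy and 5x2 Gy, so their sum was not higher in irradiated cells. Of 10 markers of other leukocytes, Ptprc, Cd3g, Adgre1, Itgam and Csf1r were above background in the untreated channel of no array, and Cd3e, Cd4 and Cd68 on 8. The summed signal of these 10 was 2688 to 2893 in untreated cells, 2740 to 2908 after 2 Gy, 2985 to 4154 after 10 Gy and 2721 to 3291 after 5x2 Gy. Cd68, a lysosomal protein of macrophages, was called higher after 10 Gy (1.22, adjusted p = 0.00851, limma) and 5x2 Gy (0.84, adjusted p = 0.0127). The part of such cells in the rise of Blnk was not tested.

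Pid1, the adaptor of insulin signalling, had log2 ratios of 1.22, 1.61 and 1.33 after 2 Gy, 3.05 and 1.40 after 10 Gy, and 1.09, 1.32 and 1.35 after 5x2 Gy. One array, 10 Gy replicate 1, was high, and replicate 2 lay within the range of the 2 Gy arrays. Its means of 1.39 ± 0.20 (SD, n = 3), 2.23 ± 1.17 (n = 2) and 1.25 ± 0.14 (n = 3) rest on an untreated signal that was not above background on any of the 8 arrays. Set against the lowest detected signal, Pid1 was 1.59-fold higher after 2 Gy, 3.43-fold after 10 Gy and 1.49-fold after 5x2 Gy. After 5x2 Gy the irradiated signal was above background on 2 of 3 arrays. Each value divides the mean irradiated signal by the lowest untreated signal that counts as above background, or by the probe's own where higher. These are approximate limits and not strict lower bounds, because a probe not above background can exceed that lowest signal. The untreated signal of 1 such Celf5 probe averaged 7.795 after 2 Gy on the log2 scale, above the 7.725 used here.

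Pnrc1, the nuclear receptor coactivator, had log2 ratios of 1.00, 1.71 and 1.51 after 2 Gy, 1.56 and 1.45 after 10 Gy, and 0.96, 0.92 and 0.66 after 5x2 Gy. The 3 arrays after 5x2 Gy were the lowest of the 8, the highest of them just under the lowest 2 Gy array. Regimen means of Pnrc1 were 1.41 ± 0.37 (SD, n = 3), 1.5 ± 0.08 (n = 2) and 0.85 ± 0.16 (n = 3), or 2.65-fold, 2.83-fold and 1.80-fold. The 10 Gy arrays differed by 0.11 in the ratio, while both channels were brighter on replicate 1, by 0.78 (irradiated) and 0.67 (untreated).

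Celf5, the splicing regulator, had log2 ratios of 1.45, 1.87 and 1.74 after 2 Gy, 4.17 and 1.84 after 10 Gy, and 0.98, 1.15 and 1.12 after 5x2 Gy with its brightest probe. The 5x2 Gy arrays were the lowest, 10 Gy replicate 1 stood alone at the top, and replicate 2 was within the range of the 2 Gy arrays. Those values gave means of 1.69 ± 0.22 (SD, n = 3), 3.01 ± 1.65 (n = 2) and 1.08 ± 0.09 (n = 3). As for Pid1, the untreated signal was above background on 0 of 8 arrays. By the same rule this leaves approximate limits of 2.94-fold, 6.17-fold and 1.88-fold. Further Celf5 probes disagreed with this one. They had mean ratios of -0.23 to 0.21 in the 3 regimens and were not above background in the irradiated channel of any array; 1 of them was above background in neither channel and was left out, so that 11 of the 12 probes were kept. Averaged over its kept probes, Celf5 would read 0.84, 1.61 and 0.56. Of 5 neuron markers, examined because Celf5 and Cpt1c are known from the brain, Tubb3 was above background on 8 arrays and Snap25 in the untreated channel of none; their summed signal was 2281 to 2561 in untreated cells and 2077 to 2623, 2260 to 3253 and 2144 to 2573 in irradiated cells by regimen. The part of that in the rise of Celf5 was not tested.

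**Figure D2:**
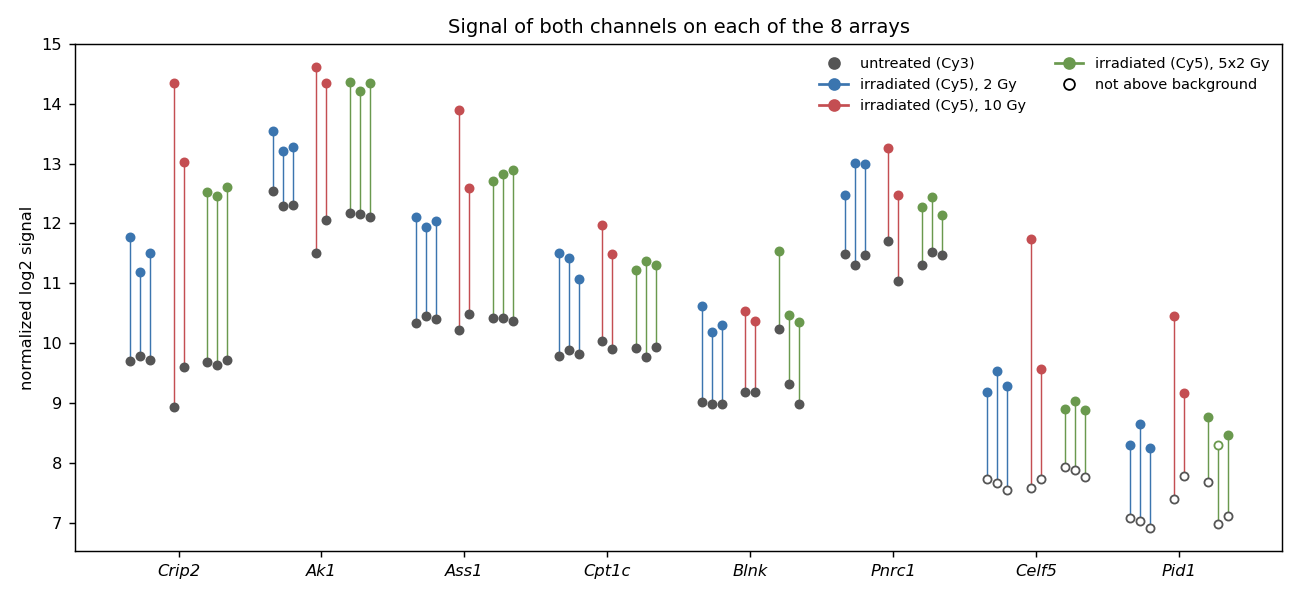
Normalized log2 signal of the untreated channel (grey) and the irradiated channel (coloured by regimen) on each of the 8 arrays, joined by a line for each array; open circles are not above background. The untreated signals of Celf5 and Pid1 are open on every array, and the untreated signals of Crip2 (8.93) and Ak1 (11.50) are lowest on 10 Gy replicate 1.

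**Figure D3:**
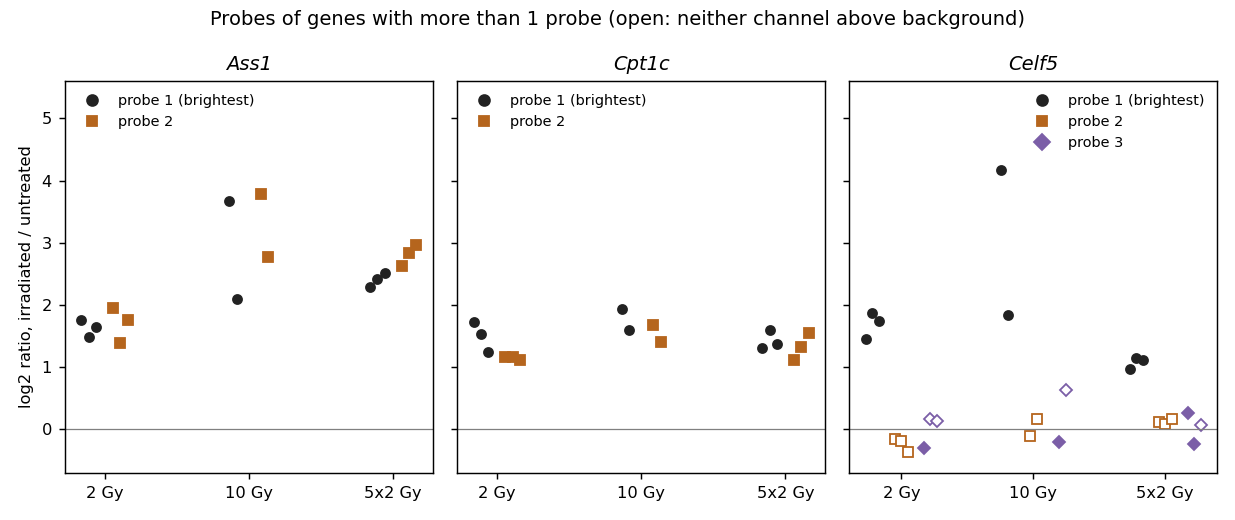
log2 ratio of each probe on each array for the genes with more than 1 probe, by regimen; open symbols are above background in neither channel. The probes of Ass1 and of Cpt1c lie on the same side of 0 on every array, while the other Celf5 probes scatter around 0.

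Doses and schedules were compared next, to see how the ratio of each gene moved with dose and with splitting the same total dose into fractions. Such differences are built from the ratios that chose the genes and carry no test. The arrays of 10 Gy and 2 Gy did not overlap for 3 of the 8 genes, Crip2, Ak1 and Ass1, each higher after 10 Gy, as for 14% of all genes; 0 of the 8 lay lower without overlap, against 18.2%. The difference was 2.67 ± 0.45 (SE from limma) for Crip2, 1.72 ± 0.22 for Ak1 and 1.26 ± 0.36 for Ass1. Within slide 1, which holds 10 Gy replicate 1, the differences were 3.65, 2.14 and 2.04. Against replicate 2, on slide 2, the same genes were still above the 2 Gy arrays. For Celf5 (1.32 ± 0.51) and Pid1 (0.84 ± 0.38), replicate 1 lay above the 2 Gy arrays and replicate 2 within their range. The untreated signal of Celf5 and Pid1 was above background on no array. For these genes each difference between regimens is one of fitted ratios that are themselves known only as approximate limits. Cpt1c (0.26 ± 0.19, brightest probe), Pnrc1 (0.10 ± 0.21) and Blnk (-0.11 ± 0.16) had overlapping arrays. With scaling between arrays these 3 differences were -0.32, -0.44 and -0.62. With the other Cpt1c probe the 10 Gy arrays (1.41 to 1.68) lay above those of 2 Gy (1.11 to 1.16).

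Fractionated and single 10 Gy shared slide 2 through 10 Gy replicate 2. The 5x2 Gy arrays lay below both 10 Gy arrays without overlap for 5 genes, as for 14.5% of all genes: Crip2 (difference -1.57 ± 0.45), Ak1 (-0.53 ± 0.22), Pnrc1 (-0.66 ± 0.21), Celf5 (-1.93 ± 0.51) and Pid1 (-0.97 ± 0.38). Within slide 2 these differences were -0.58, -0.12, -0.60, -0.76 and -0.14. So Pnrc1 kept its size within the slide and Ak1 and Pid1 were close to 0 there. With its brightest probe, Ass1 pointed down over both 10 Gy arrays (-0.48 ± 0.36) and up within slide 2 (0.31). With its second probe, 10 Gy replicate 2 lay within the range of the 5x2 Gy arrays. None of the 8 (0) was higher after 5x2 Gy without overlap, against 15.6% of all genes. For Cpt1c the difference was -0.34 ± 0.19 and for Blnk 0.002 ± 0.16, both with overlapping arrays.

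Fractionated 5x2 Gy and single 2 Gy shared no slide, and regimen and slide cannot be told apart for them except through the pair of 10 Gy arrays. Arrays after 5x2 Gy were above those after 2 Gy without overlap for Crip2 (1.10 ± 0.41), Ak1 (1.19 ± 0.20) and Ass1 (0.78 ± 0.32), as for 21.1% of all genes. They were below for Pnrc1 (-0.56 ± 0.19) and Celf5 (-0.61 ± 0.46), as for 25.9%. The sizes moved with the processing. With slide as a block the differences were 3.07, 2.02 and 2.35 for Crip2, Ak1 and Ass1, -0.45 for Pnrc1 and 1.72 for Celf5, whose direction turned. With scaling between arrays they were 0.17, 0.59 and -0.04 for Crip2, Ak1 and Ass1, so the direction of Ass1 turned, and -1.08 and -1.24 for Pnrc1 and Celf5. Cpt1c (-0.08 ± 0.17), Blnk (-0.11 ± 0.15) and Pid1 (-0.14 ± 0.34) overlapped between these regimens, and with slide as a block their differences were 0.27, 0.07 and 1.52. Without background correction that of Pid1 was 0.03.

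Crip2 had the highest ratio of the 8 and Blnk the lowest on both 10 Gy arrays, and the sizes differed. Replicate 1 exceeded replicate 2 for 8 of the 8 genes, by a median of 1.20 on the log2 scale. For all genes the median was -0.03, and 47.62% were higher on replicate 1. The 8 genes were chosen by ratios that include these arrays, so nothing is read from that contrast. The gap was 2.33 for Celf5, 1.97 for Crip2, 1.66 for Pid1, 1.58 for Ass1 and 0.83 for Ak1. It was 0.34 for Cpt1c, 0.17 for Blnk and 0.11 for Pnrc1. The spread of all log2 ratios was larger on replicate 1 (SD 0.69) than on replicate 2 (0.46), and its part in the gap was not tested. Cdkn1a, the cell cycle inhibitor, was also higher on replicate 1 (3.73 against 1.47), as was Mdm2 (2.90 against 1.38), while Ccng1 was lower there (1.55 against 2.44).

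**Figure D4:**
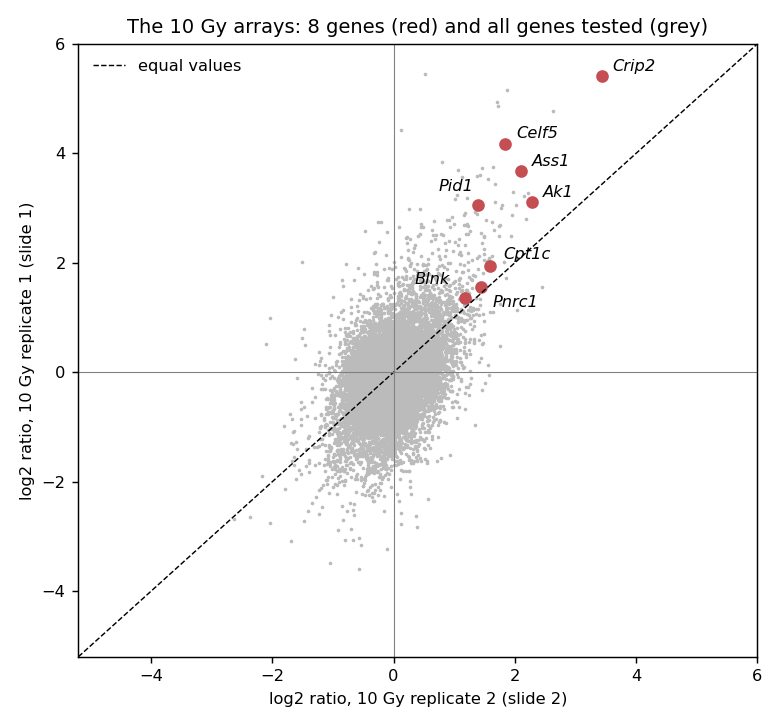
log2 ratio of each tested gene on 10 Gy replicate 2 (horizontal axis) and replicate 1 (vertical axis), with the 8 genes in red, all others in grey and equal values on the dashed line. Each red point lies above the line; Crip2 is at 3.43 and 5.41, and Blnk and Pnrc1 are nearest to the line.

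For each gene, the genes with the most similar ratios over the 8 arrays were those with the smallest root mean square difference of log2 ratios. Nearest to Ass1 was Dcxr (dicarbonyl and xylulose reductase) at 0.35, then Ephx1 (microsomal epoxide hydrolase) at 0.44. Crip2 had no near match: Anxa8, an annexin, and Dcxr lay at 0.98 and 0.99. Ak1 had Mxd4, a repressor of the MYC network, at 0.35 and Serpine2, a protease inhibitor, at 0.39. Near Cpt1c were Sh2d3c (0.35) and Dlgap1 (0.37), near Blnk Dlgap1 (0.16) and Cpped1 (0.21), and near Pnrc1 Dlgap1 (0.30) and Fbxl20 (0.32). Celf5 had Fcgbp (0.50) and Trp53inp1 (0.50), the latter a p53 target, and Pid1 had Fbxw9 (0.21) and Bbc3 (0.28), the p53 target known as PUMA. Over all genes the median difference from these 8 ranged from 1.33 for Pnrc1 to 3.11 for Crip2. Among the 8 genes themselves the closest pair was Cpt1c and Blnk (0.32), and the farthest was Crip2 and Pnrc1 (2.01). Dlgap1 and Anxa8 were not above background in untreated cells, and Dlgap1 was above background in neither channel after 5x2 Gy, so its likeness rests on dim signals. Serpine2 was not above background in untreated cells of the 2 Gy and 5x2 Gy arrays.

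Relatives and pathway partners of the 8 genes were then tested. They were listed by family and pathway, with earlier results of these data known. Of 162 genes listed, 131 were tested. With an adjusted p of 0.05 in limma as the limit, 2 Gy gave 11 higher and 13 lower ones, against 9% and 7.94% of all genes; 13 and 24 after 10 Gy, against 12.4% and 15.8%; and 22 and 31 after 5x2 Gy, against 17.6% and 23.4%. In both directions together, 16.9%, 28.2% and 41% of all genes were called in the 3 regimens. As shares of the 131 these are 8.40% and 9.92%, 9.92% and 18.3%, and 16.8% and 23.7%, near the background in each regimen. Their median log2 ratio was -0.02, -0.10 and -0.05, against -0.003, -0.056 and -0.02 for all genes. With median centring in place of loess the split of the related genes was 26 higher and 1 lower after 2 Gy and 22 and 16 after 10 Gy, while that of all genes was 2969 and 640, and 2293 and 1616; that centring moved the median of all genes after 2 Gy to 0.13. Of the 24 calls after 2 Gy, 1 held whichever array was left out, as did 24 of 37 after 10 Gy and 23 of 53 after 5x2 Gy. The genes named below as called after 10 Gy or 5x2 Gy kept their call whichever array was left out, unless a value says otherwise. Other fits called fewer or more. Slide as a random block left 0 related genes called after 2 Gy, 18 after 10 Gy and 5 after 5x2 Gy. Array weights gave 65, 1 and 84 in the 3 regimens, and slide as a block gave 37, 65 and 41. Most named calls were lost in at least 1 setting, where the highest adjusted p was 0.101 for Crip1 after 10 Gy, 0.198 for Fhl2 after 5x2 Gy and 0.141 for Pnrc2 after 5x2 Gy.

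**Figure D5:**
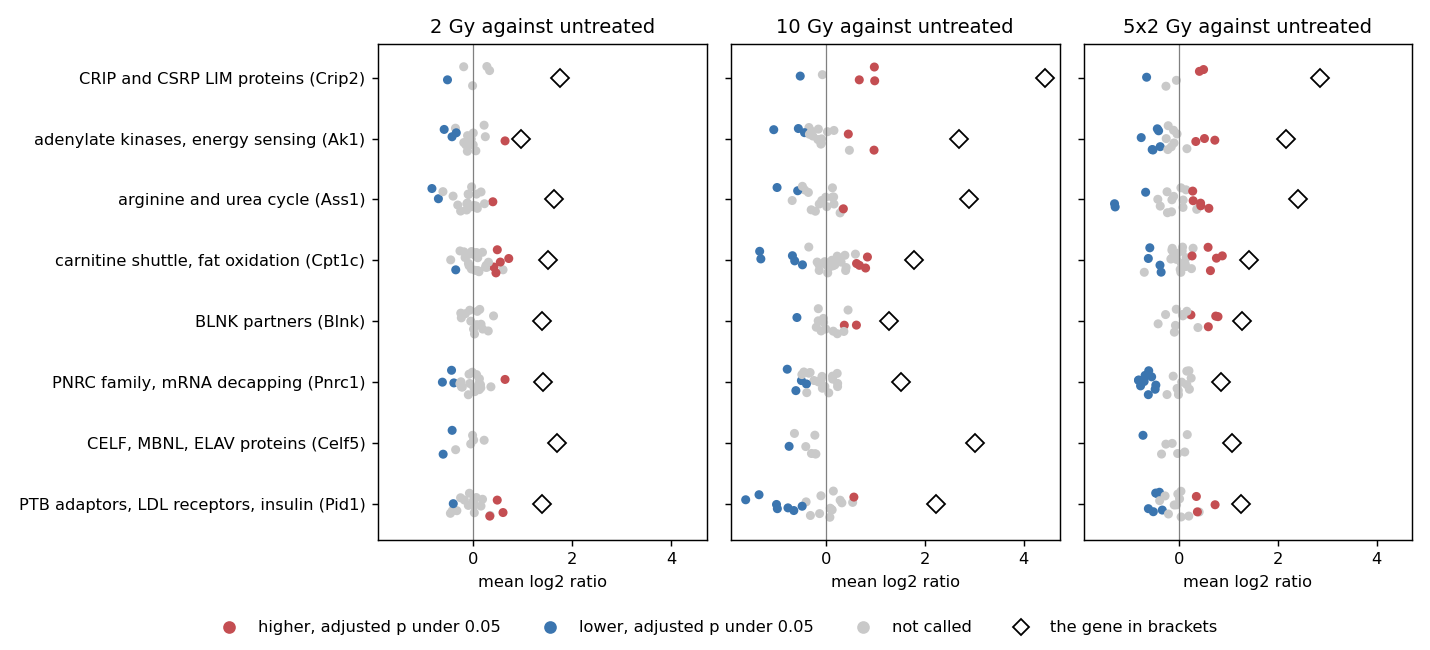
Mean log2 ratio of each tested relative or partner by list and regimen, red where called higher, blue where called lower (adjusted p under 0.05, limma) and grey otherwise; the open diamond is the gene named in brackets, which is not in its list. Each diamond lies to the right of the related genes of its own list in each regimen, and the blue points are most frequent in the decapping list after 5x2 Gy.

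Of 5 tested LIM domain relatives of Crip2, 3 were called higher and 1 lower after 10 Gy, 0 and 1 after 2 Gy, and 2 and 1 after 5x2 Gy. Crip1, its closest relative, rose by 0.98 ± 0.12 (SE; 1.05 and 0.91 on the arrays; adjusted p = 7.3e-04), and Csrp2 by 0.97 ± 0.17 (1.26 and 0.68; adjusted p = 0.0029). Csrp1 had 0.67 ± 0.17 (adjusted p = 0.0158), which became 0.36 with an adjusted p of 0.114 without replicate 1. After 5x2 Gy, Crip1 was at 0.41 (adjusted p = 0.00953, and 0.0696 without replicate 1 or 0.0538 without replicate 3). Fhl2, a LIM domain coregulator, was lower after 5x2 Gy by a log2 ratio of -0.66 ± 0.12 (adjusted p = 0.00219). It was also called lower after 2 Gy (-0.53, adjusted p = 0.0149, limma) and 10 Gy (-0.53, adjusted p = 0.0213, limma). Both of these calls were lost with some arrays left out, and the 10 Gy value was -0.32 without replicate 2. With median centring Fhl2 was at -0.15 after 2 Gy and -0.10 after 10 Gy.

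Among the adenylate kinases, Ak3, Ak4, Ak5, Ak6 and Ak8 were not called higher in any regimen. Ak4, the mitochondrial isoform, was lower after 10 Gy (-1.06 ± 0.17, adjusted p = 0.00235) and 5x2 Gy (-0.77 ± 0.14, adjusted p = 0.00286); after 2 Gy it was at -0.59 (adjusted p = 0.0212) and its call was lost without any of the 2 Gy arrays (adjusted p = 0.0955, 0.0892 and 0.152). Ckb, the creatine kinase that buffers ATP, was higher after 10 Gy (0.97 ± 0.14, adjusted p = 0.00128) and 5x2 Gy (0.72 ± 0.11, adjusted p = 0.00134). In the list of 17 tested genes of adenylate kinases and energy sensing, 1 was called higher and 3 lower after 2 Gy, 2 and 3 after 10 Gy, and 3 and 6 after 5x2 Gy.

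The arginine list had 20 tested genes, of which 1 was called higher and 2 lower after 2 Gy, 1 and 2 after 10 Gy and 5 and 3 after 5x2 Gy. Asl, argininosuccinate lyase, follows Ass1 in the pathway and was named after its values were seen: it was at 0.06, -0.01 and 0.14 in the 3 regimens (adjusted p = 0.748, 0.959 and 0.353). Azin1, the antizyme inhibitor of polyamine synthesis, was lower after 2 Gy (-0.84 ± 0.10, adjusted p = 0.00166) and 10 Gy (-0.58 ± 0.12, adjusted p = 0.00695, and -0.26 with an adjusted p of 0.118 with median centring). Pycr1 (proline synthesis) and Asns (asparagine synthetase) were lower after 5x2 Gy, at -1.31 ± 0.27 and -1.29 ± 0.28 (adjusted p = 0.00483 and 0.00583), which became -0.38 and -0.31 with slide as a block.

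Cpt1a, the liver-type relative of Cpt1c, was at 0.26, 0.59 and 0.59 in the 3 regimens and was called after 5x2 Gy (adjusted p = 0.0227), a call lost without any of the 5x2 Gy arrays (adjusted p = 0.0716, 0.132 and 0.086). Its 10 Gy arrays read 1.16 and 0.03. Cpt1b, the muscle type, was at -0.04, 0.13 and 0.08 and was not called. Of 27 tested genes of the carnitine shuttle and fatty acid oxidation, 5 were called higher and 1 lower after 2 Gy, 4 and 5 after 10 Gy, and 5 and 4 after 5x2 Gy. Cpt2, the inner-membrane partner, was higher after 5x2 Gy (0.64 ± 0.13, adjusted p = 0.00446), as was Mlycd, which removes the malonyl-CoA that inhibits these enzymes (0.76 ± 0.10, adjusted p = 5.5e-04). Slc25a20, the carnitine carrier, was higher after 10 Gy (0.83 ± 0.15, adjusted p = 0.00424) and Acsl3, which activates fatty acids, was lower (-1.35 ± 0.20, adjusted p = 0.00152).

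Partners of Blnk in B cells were in part not detected: 14 of 21 were tested, and Syk, Btk and the relative Lcp2 were not. None of the 14 was called after 2 Gy (0 at an adjusted p of 0.05), 2 were higher and 1 lower after 10 Gy, and 4 were higher after 5x2 Gy. Plcg2, the phospholipase that Blnk recruits, was higher after 10 Gy (0.61 ± 0.13, adjusted p = 0.00809) and 5x2 Gy (0.74 ± 0.11, adjusted p = 9.0e-04). Map4k1, a kinase that binds Blnk, was higher after 5x2 Gy (0.79 ± 0.14, adjusted p = 0.00213; 0.45 with slide as a block).

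Pnrc2, the relative of Pnrc1 that acts in mRNA decay, was at 0.02 and -0.33 after 2 Gy and 10 Gy and fell by 0.69 after 5x2 Gy (arrays at -0.56, -0.72 and -0.78; adjusted p = 0.00127). It therefore moved down where Pnrc1 was at its lowest but still above 0. Of the 21 tested genes of decapping and decay, 1 was called higher and 3 lower after 2 Gy, 0 and 4 after 10 Gy, and 0 and 10 after 5x2 Gy, where 23.4% of all genes were lower. The median of the list was -0.24 there, against -0.02 for all genes. Smg6 of nonsense-mediated decay was lower after 5x2 Gy (-0.82 ± 0.17, adjusted p = 0.0044), as was Lsm5 of the ring that binds mRNA ends (-0.82 ± 0.13, adjusted p = 0.00131). With median centring the split turned after 2 Gy (5 higher and 0 lower) and was even after 10 Gy (2 and 2), while after 5x2 Gy it was 0 and 10.

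Celf1, the most widely expressed relative of Celf5, moved the other way: it was lower after 10 Gy (-0.91 and -0.60 on the arrays, mean -0.75 ± 0.12, adjusted p = 0.00231, and 0.0817 with median centring) and 5x2 Gy (-0.73 ± 0.10, adjusted p = 7.4e-04). After 2 Gy its value of -0.43 (adjusted p = 0.0187) became 0.01 with median centring. Celf2 and Celf4 were not called in any regimen, and Celf3 and Celf6 were not tested. In the list of 7 tested RNA-binding proteins 0 were called higher, and 2, 1 and 1 were lower in the 3 regimens; with median centring the split was 1 higher and 0 lower after 2 Gy, 0 and 0 after 10 Gy, and 0 and 1 after 5x2 Gy.

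Among the 20 tested genes around Pid1, 3 were called higher and 1 lower after 2 Gy, 1 and 7 after 10 Gy and 3 and 6 after 5x2 Gy. Irs1, the insulin receptor substrate, was lower after 10 Gy (-1.36 ± 0.15, adjusted p = 4.8e-04) and 5x2 Gy (-0.62 ± 0.12, adjusted p = 0.00405). Akt2, a kinase of insulin signalling, was higher after 5x2 Gy (0.73 ± 0.14, adjusted p = 0.00339; 0.44 with slide as a block). Lrp1, a receptor that Pid1 binds, named after its values were seen, was at 0.34, 0.28 and 0.41 without a call (adjusted p = 0.204, 0.35 and 0.0866).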

How the data were processed

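RNA of untreated (Cy3) and irradiated (Cy5) LLC1 cells was hybridised to 8 dual-colour arrays of 45220 spots. Per the file headers, the authors deposited spot intensity (mean and median pixel signal, ImaGene 9.0), not normalized and without a background column; the meaning of the spot flags is not given in the sources used here. The deposited series matrix holds log2 ratios per probe with column medians of -0.005 to 0.009; against ratios of the scanner signals of the same arrays (slopes of 0.993 to 0.999) they run as Cy5 over Cy3. From the mean signals, limma 3.58.1 in R 4.3.3 gave normexp-corrected (offset 50) ratios, then within-array loess (weight 0 for controls), averaged over the spots of a probe. A probe was kept if it exceeded the median of the 153 negative controls by 2.6 robust SD in 1 channel or more on at least 2 arrays (21685 of 41174 probes). Symbols were updated through RefSeq accessions (27888 probes named, 1580 symbols changed, 7050 probes keeping the array's symbol). Each gene is its brightest probe. A fit to the 8 arrays, with a mean for each regimen, used eBayes and Benjamini-Hochberg adjustment over 13406 genes, called at 0.05. Channel signals are log2 values after loess and Aquantile scaling, and the approximate fold limits of Celf5 and Pid1 use them. Without dye swaps these signals can carry dye bias. The fit was tested on simulated data.

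The 8 genes and the lists of related genes were chosen with earlier results of these data known. Genes were named by rule: the 8 genes with every probe, 2 nearest genes by pattern each, leaving out predicted and clone names, direct relatives, up to 3 called genes of largest ratio per list and regimen with arrays of 1 sign, and Cdkn1a, Mdm2 and Ccng1. The text gives part of these, and some are not reported here. Replicate numbers were not read as pairs: deviations from the group means of same-numbered arrays correlated at -0.24 to 0.12. Alternatives changed the background correction, normalization, pixel summary, filter, probe choice, blocks and weights, or left out 1 array; leaving out flagged spots was added after seeing the data. Tools for sequences and plots were Python 3.11.15, pandas 2.3.3 and matplotlib 3.10.9. The number of arrays limits the precision.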

Additional observations from a re-analysis of the deposited data

Results flagged for a closer look

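Some values stood apart from the others of their kind. A test of the most extreme of 8 values flags about 1 in 20 groups by chance. The untreated log2 signal of Crip2 was 8.93 on 10 Gy replicate 1, with the nearest array at 9.60, and that of Ak1 was 11.50 on the same array, with the nearest at 12.06. The Blnk signal in untreated cells was 10.24 on 5x2 Gy replicate 1, with the nearest array at 9.31; its irradiated signal was high on that array too (11.54), and the ratio was 1.30, within the range of the other arrays. On that spot the mean pixel signal was 1287 and the median 844 (untreated channel).

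Among the related genes, 2 moved in opposite directions on the arrays of different regimens, and these differences were not tested. Vav2, an exchange factor that acts with Blnk, was lower on each 2 Gy array (mean -0.25) and higher on each 10 Gy array (mean 0.36, a difference of 0.61) and each 5x2 Gy array (mean 0.24, a difference of 0.48). Vldlr, the VLDL receptor, was higher on each 2 Gy array (mean 0.60) and each 10 Gy array (mean 0.53, arrays at 0.055 and 1.014). It was lower on each 5x2 Gy array (mean -0.28), differences of -0.88 and -0.82. With slide as a block the 2 Gy value of Vldlr was 0.12. The 2 Gy and 5x2 Gy arrays shared no slide, so regimen and slide cannot be told apart except through the 10 Gy pair.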

How the results depend on the processing

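The ratios of the 8 genes stayed above 0 in each setting that gave a value, 24 of 24 or, without dim probes or flagged spots, where 1 gene could not be fitted, 21 of 21, and 8 of 8 for each left-out array. Differences between regimens changed more. That of Ass1 between 5x2 Gy and 2 Gy turned to -0.042 with scaling between arrays, and that of Celf5 turned to 1.72 with slide as a block; the block takes the slide difference from the 10 Gy pair alone. Smaller differences also changed sign. Among them were those of Cpt1c and Pnrc1 between 10 Gy and 2 Gy with scaling between arrays. Between 5x2 Gy and 2 Gy, those of Cpt1c, Blnk and Pid1 did so with slide as a block, and that of Pid1 also without background correction. Counts of called genes depended most on the fit. Starting from 2272, 3782 and 5490 of all genes and 24, 37 and 53 related genes after 2, 10 and 5x2 Gy, median centring gave 3609 genes after 2 Gy, scaling between arrays 4126 and 37 related genes there, and no filter 8443 genes after 5x2 Gy. Slide as a block gave 4458 and 37 after 2 Gy and 6520 and 65 after 10 Gy. With slide as a random block, 21 genes and 0 related ones were called after 2 Gy, 1466 and 18 after 10 Gy, and 816 and 5 after 5x2 Gy. After 2 Gy, 18 related genes had an unadjusted p under 0.05 in that limma fit. The 24 without the block were called at an adjusted p, so these counts are at different thresholds. Array weights gave 7279 and 65, 222 and 1, and 8951 and 84. Arrays of a regimen fitted alone gave 4817 and 44 after 2 Gy and 279 and 3 after 10 Gy. The replicate block, whose pairing the arrays do not show, gave 1422 and 15 after 2 Gy, 2277 after 10 Gy and other counts within 1.5 times. Leaving out 1 array gave 408 (without 2 Gy replicate 3) to 5382 (without 10 Gy replicate 1) genes and 2 to 51 related ones after 2 Gy, 2912 to 6078 (without replicate 2) and 31 to 55 after 10 Gy, and 3009 (without replicate 3) to 7980 (without 10 Gy replicate 1) and 27 to 76 after 5x2 Gy. The cause of these changes was not tested. Celf5 and Pid1 are limited by an untreated signal below background, and Crip2 and Ak1 by spots near saturation on 10 Gy replicate 1.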

Other observations

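Genes next to the 8 genes on the chromosome were set beside them, as a description by position in RefSeq's gene order. Of 32 neighbours within 2 places, 19 were tested, with 0 called higher and 1 lower after 2 Gy, 4 and 2 after 10 Gy, and 6 and 4 after 5x2 Gy (limma), against 9% and 7.94%, 12.4% and 15.8%, and 17.6% and 23.4% of all genes. After 10 Gy the 4 were Crip1, Eng, Ap2a1 and Ncln and the 2 were Rngtt and Nfic; these and the genes below were named after their values were seen. Crip1 lies 2 places from Crip2. Eng, endoglin, a coreceptor of the TGF beta family, lies next to Ak1. Its log2 ratios were 0.73, 0.21 and 0.39 after 2 Gy, 1.87 and 1.24 after 10 Gy, and 1.04, 0.96 and 1.08 after 5x2 Gy, so that the 10 Gy arrays were the highest and those after 2 Gy the lowest. Means were 1.55 after 10 Gy (adjusted p = 4.3e-04) and 1.03 after 5x2 Gy (adjusted p = 6.5e-04), and 0.44 after 2 Gy (adjusted p = 0.0517). St6galnac6, on the other side of Ak1, was at 0.12, -0.10 and 0.01 and was not called. Rngtt, the mRNA capping enzyme next to Pnrc1, was at -0.26, -0.72 and -0.85 and was lower after 10 Gy and 5x2 Gy (adjusted p = 0.00411 and 5.6e-04).

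Ass1 and Ak1 lie on chromosome 2 with 28 protein-coding genes between them, of which 25 were tested. Of these, 4 were called higher and 2 lower after 2 Gy, 5 and 1 after 10 Gy and 7 and 4 after 5x2 Gy, against the same shares of all genes, and their medians were 0.01, -0.05 and 0.16, against -0.003, -0.056 and -0.02 for all genes. The highest was Fam102a after 10 Gy (1.25) and 5x2 Gy (1.00).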
